A study of Mus musculus with 8 samples.

Results

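The 10 genes described here, Cd34, Lgr5, Lhx2, Sox9, Nfatc1, Tbx1, Shisa2, Foxc1, Runx1 and Tshz2, are hair follicle bulge and germ markers, taken by symbol from a table of 32574 genes. Each symbol was found on 1 row, and all 10 genes passed the filter on low values in all 8 libraries. The series concerns how clones expand and tissue becomes fluid in mouse skin repair, and it compared basal epidermal cells with and without ablation by bulk RNA sequencing of sorted cells. There were 4 groups of 2 libraries, all of polyA RNA from epithelial cells of the skin epidermis: Lrig1 ablation and K14 ablation, with the genotype basal lineage ablation, and Lrig1 control and K14 control, with the genotype WT. K14 is the protein of Krt14, a keratin of the basal layer, and Lrig1 marks stem cells in the upper hair follicle. The sources used here do not give what these names refer to (a driver line, a gate or the cells ablated), nor the strain, the age, the ablating agent, the time after ablation or any pooling of animals. Nothing in the labels places 2 libraries of a group in separate animals, so the p-values below measure the spread between libraries, which may be technical.

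The bulge is the resting niche of hair follicle stem cells, and the hair germ just beneath it holds the cells that divide first when a new hair cycle starts. Bulge identity in mice rests on a set of transcription factors, among them Sox9, Lhx2, Nfatc1, Tbx1 and Foxc1, and the niche is known for holding its cells quiescent until Wnt signals rise and BMP signals drop. Bulge cells normally serve the follicle, and they are also known to send progeny into the interfollicular epidermis after wounding.

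Libraries held between 6458636 and 11654135 recovered reads, so that 3 reads, the floor used here, equal a normalised read count of 2.12 to 4.23. Cd34 rested on 9 to 61 reads per library, and the other 9 genes on 28 to 4423. The floor covers counting error only, since reads without molecular identifiers are not independent molecules. The libraries of the ablation pairs stood further apart than those of the control pairs: 18.8% of all tested genes differed by more than 2-fold between the Lrig1 ablation libraries and 12.7% between the K14 ablation libraries, against 5.88% in Lrig1 control and 3.69% in K14 control. Lrig1 itself was 1734 and 3575 in Lrig1 ablation and 4013 and 4194 in Lrig1 control, against 357 and 1486 in K14 ablation and 585 and 656 in K14 control. Krt14 was between 28050 and 79650 in every library.

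In unablated skin, all 10 markers were higher in both Lrig1 control libraries than in both K14 control libraries. Of the 10, 7 rose past the threshold of an adjusted p of 0.05 (limma, adjusted over 18140 genes): the transcription factor genes Lhx2, Sox9, Nfatc1, Tbx1, Foxc1 and Tshz2, and Shisa2. None fell. Over all tested genes 8.79% passed in this comparison and 6.52% passed in the higher direction, and in 34.5% of genes both Lrig1 control libraries lay above both K14 control libraries. The median log2 difference was 1.80 over the 10 markers and -0.0049 over all tested genes. Of all normalised reads, mitochondrial genes took 6.29 and 6.89% in Lrig1 control, against 2.91 and 2.90% in K14 control, and the part of this in the marker differences was not tested. In bulk RNA, fewer cells of a type and less RNA per cell cannot be told apart.

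Sox9 (ENSMUSG00000000567, GRCm38 chromosome 11, 112782224 to 112787760, plus strand) encodes the factor that sets up the hair follicle stem cell pool. Its normalised read count was 3239 and 2907 in the Lrig1 control libraries, against 666 and 726 in the K14 control libraries, so that the log2 difference was 2.14 ± 0.43 (SE) with a limma adjusted p of 0.0219. Nfatc1 (ENSMUSG00000033016, chromosome 18, 80606205 to 80713071, minus strand), a calcineurin-controlled factor that holds bulge cells quiescent, was 2527 and 2193 in Lrig1 control, against 548 and 627 in K14 control (log2 difference 2.00 ± 0.34, adjusted p = 0.0125). Foxc1 (ENSMUSG00000050295, chromosome 13, 31806633 to 31812476, plus strand), a forkhead factor also tied to bulge quiescence, was 2347 and 2262 in Lrig1 control, against 274 and 287 in K14 control (3.03 ± 0.67, adjusted p = 0.0316). For all 3 genes the libraries of a group lay close together and the groups were several-fold apart. Tshz2 (ENSMUSG00000047907, chromosome 2, 169633013 to 170071816, plus strand), a teashirt zinc finger gene, stood furthest apart among the 10, with 697 and 671 in Lrig1 control, against 57.9 and 60.1 in K14 control. Its mean was 11.6 times as high in Lrig1 control (log2 difference 3.51 ± 0.39, adjusted p = 0.0040).

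Lhx2 (ENSMUSG00000000247, chromosome 2, 38339281 to 38369733, plus strand), a LIM homeodomain factor that keeps bulge cells in their stem cell state, was 162 and 178 in Lrig1 control, against 40.6 and 54.2 in K14 control (log2 difference 1.83 ± 0.31, limma adjusted p = 0.0127). Tbx1 (ENSMUSG00000009097, chromosome 16, 18580979 to 18590671, minus strand), a T-box factor of stem cell self-renewal, was 203 and 175 in Lrig1 control, against 49.8 and 59.1 in K14 control (1.78 ± 0.33, adjusted p = 0.0173). Shisa2 (ENSMUSG00000044461, chromosome 14, 59625308 to 59631660, plus strand) belongs to the Shisa family, which in Xenopus holds back the maturation of Wnt and FGF receptors. It was 159 and 148 in Lrig1 control, against 72.1 and 78.8 in K14 control (1.02 ± 0.20, adjusted p = 0.0215). The groups did not overlap in any of these 3 genes, whose normalised read counts per kilobase of exon were below those of Sox9, Nfatc1 and Foxc1 in both control groups.

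The remaining 3 markers did not pass. Runx1 (ENSMUSG00000022952, chromosome 16, 92601466 to 92826149, minus strand), a factor that promotes the activation of bulge cells at the start of a hair cycle, was 838 and 835 in Lrig1 control, against 301 and 324 in K14 control (log2 difference 1.42 ± 0.38, limma adjusted p = 0.0598). Cd34 (ENSMUSG00000016494, chromosome 1, 194938819 to 194961279, plus strand), a surface sialomucin used to sort mouse bulge cells, was 26.8 and 16.9 in Lrig1 control, against 12.2 and 8.9 in K14 control (0.97 ± 0.46, adjusted p = 0.246). Lgr5 (ENSMUSG00000020140, chromosome 10, 115450311 to 115587780, minus strand), the R-spondin receptor that marks the lower bulge and the germ, was 67.5 and 52.2 in Lrig1 control, against 30.5 and 48.2 in K14 control (0.62 ± 0.52, adjusted p = 0.529). The 2 classical surface markers of the bulge and germ were therefore at low read counts in both control groups, and the nearest Lgr5 values of the 2 groups lay side by side. Low counts were not particular to Lgr5. In K14 control it rested on 30 to 49 reads, and Lhx2 (40 to 55) and Tshz2 (57 to 61), which passed, were not far above. The 95% interval of the log2 difference was -0.10 to 2.03 for Cd34 and -0.58 to 1.82 for Lgr5.

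The 7 calls depended on the control libraries. Without either Lrig1 control library none of the 10 markers passed in limma, and without either K14 control library only Tshz2 did. The loss was general: of all tested genes 1 or 2 passed without a Lrig1 control library and 91 or 96 without a K14 control library, against 1594 with all libraries. The log2 differences of the 7 lay between 0.96 and 3.54 in these fits, and all 10 estimates stayed positive.

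**Figure D1:**
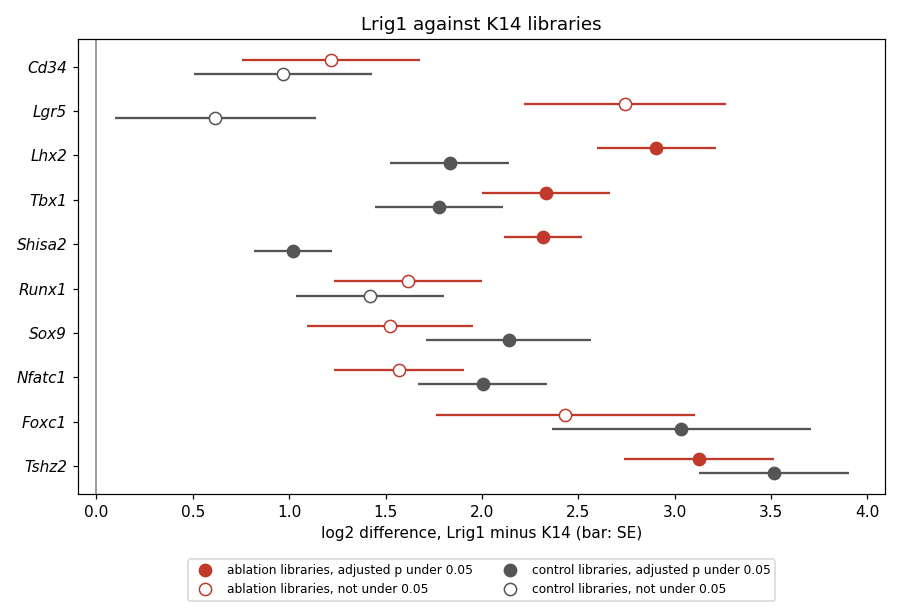
Log2 difference of each marker, Lrig1 minus K14, in the ablation libraries (red) and the control libraries (grey), with the SE as the bar; filled points had an adjusted p under 0.05 (limma). All 20 points lie above 0, from 0.62 for Lgr5 to 3.51 for Tshz2, both in the control libraries.

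Start site windows of 4 markers are shown because they set the sequence context of genes that were higher together in the Lrig1 libraries: Tshz2 and Foxc1 had the largest differences between control groups, Shisa2 the smallest among those that passed, and Cd34 did not pass. The windows, from RefSeq on GRCm38.p6, run 5′ to 3′ on the gene's strand from 250 bases before to 50 bases after the annotated start, all 4 on the plus strand. The start used for Tshz2 lies upstream of the GENCODE gene start given above, so that its window does not reach that position. Of the 10 markers 7 matched an entry, with 10 windows in all. The windows are chr2:169632259-169632558 for Tshz2, chr13:31806396-31806695 for Foxc1, chr14:59625031-59625330 for Shisa2 and chr1:194938571-194938870 for Cd34. Capitals mark matches to 6 short motifs of factor families that the markers encode.
Tshz2: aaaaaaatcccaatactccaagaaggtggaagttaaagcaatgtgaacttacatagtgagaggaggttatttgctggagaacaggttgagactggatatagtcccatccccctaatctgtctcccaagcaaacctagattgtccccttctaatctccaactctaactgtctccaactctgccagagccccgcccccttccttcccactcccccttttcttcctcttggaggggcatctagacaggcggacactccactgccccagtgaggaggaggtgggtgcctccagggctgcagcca
Foxc1: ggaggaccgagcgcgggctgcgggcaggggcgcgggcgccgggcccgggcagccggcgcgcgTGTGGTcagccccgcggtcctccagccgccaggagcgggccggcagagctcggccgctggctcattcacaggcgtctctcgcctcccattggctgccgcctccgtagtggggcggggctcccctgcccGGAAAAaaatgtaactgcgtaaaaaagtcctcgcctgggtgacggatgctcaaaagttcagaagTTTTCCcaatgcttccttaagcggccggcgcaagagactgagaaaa
Shisa2: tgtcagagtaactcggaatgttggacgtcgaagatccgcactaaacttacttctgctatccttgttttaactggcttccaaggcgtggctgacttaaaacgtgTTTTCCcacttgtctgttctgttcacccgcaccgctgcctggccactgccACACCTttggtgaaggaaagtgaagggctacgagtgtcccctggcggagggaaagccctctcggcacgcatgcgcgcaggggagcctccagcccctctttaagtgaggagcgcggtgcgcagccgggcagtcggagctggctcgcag
Cd34: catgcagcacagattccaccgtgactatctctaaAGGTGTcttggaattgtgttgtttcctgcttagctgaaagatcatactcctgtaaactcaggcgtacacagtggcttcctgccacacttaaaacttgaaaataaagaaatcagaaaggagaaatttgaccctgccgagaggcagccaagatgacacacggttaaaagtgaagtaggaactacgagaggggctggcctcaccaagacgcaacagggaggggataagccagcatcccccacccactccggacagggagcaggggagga

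The 4 windows differ in base composition. The Foxc1 window holds 67.3% G and C with 32 CpG dinucleotides and the Shisa2 window 58% with 20, while the Cd34 window holds 50% with 7 and the Tshz2 window 52% with 2. The median of all 32851 windows in the table is 52.7% with 7 CpG dinucleotides. The motifs were searched on both strands: ACAATG for SOX factors (in 12.6% of all windows), TAATTA for LIM homeodomain factors (5.29%), TGTGGT for RUNX (16.8%), TAAACA for forkhead (13.4%), GGAAAA for NFAT (23.4%) and AGGTGT for T-box (13.7%). The Foxc1 window holds a RUNX match at position -188 and NFAT matches at -60 and 4, counted from the start site. The Shisa2 window holds an NFAT match at -147 and a T-box match at -97, the Cd34 window a T-box match at -216, and the Tshz2 window none. No 2 of these matches overlap. A match describes the letters of a window only.

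Genes of other compartments differed between the same 2 control groups, and their part in the marker differences was not tested. Of the 7 upper hair follicle markers, 5 rose past the threshold in Lrig1 control, led by Gata6 with a log2 difference of 4.91, Defb6 (4.81) and Krt79 (4.51), and Lrig1 itself rose by 2.73. Lgr6 went the other way, at 346 and 364 in Lrig1 control, against 582 and 665 in K14 control. Plet1 was nearly level, at 3002 and 2910 in Lrig1 control, against 2812 and 2752 in K14 control. The summed upper follicle level was 58270 to 60750 in Lrig1 control, against 7640 to 7701 in K14 control, with no marker at 0 in both libraries of a group. Of 12 tested blood endothelium markers 10 passed, among them Sele (5.27) and Selp (5.20). In K14 control Sele rested on 3 to 6 reads and Selp on 2 to 4. The summed level over the list was 1173 to 1295 in Lrig1 control, against 111 to 128 in K14 control. Kdr, the VEGF receptor of endothelium, was 71.0 and 78.9 in Lrig1 control and 0 in both K14 control libraries, and Emcn was 50.1 and 55.0, against 0 and 0.985. Blood vessel endothelium, some fibroblasts and blood progenitors also carry Cd34, and the part of such cells in its values was not tested.

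Of 4 lymphatic endothelium markers 3 passed, Lyve1 (4.18), Prox1 (3.69) and Flt4. In K14 control Prox1 rested on 3 to 4 reads and Flt4 was at the floor. The lymphatic sum was 453 to 502 in Lrig1 control, against 38.4 to 44.7 in K14 control. Of 5 tested fibroblast markers 3 passed, Col3a1 (2.44), Col1a1 (1.95) and Pdgfra, the last below the floor in K14 control, with a sum of 190 to 299 in Lrig1 control, against 85.3 to 93.5 in K14 control, where Lum was at 0. Of 8 tested leukocyte markers 4 passed, among them Ptprc (3.68) and the Langerhans cell gene Cd207 (3.62). In K14 control Ptprc rested on 3 to 4 reads and Cd207 on 0 to 5. The leukocyte sum was 832 to 1116 in Lrig1 control, against 374 to 494 in K14 control, where Cd3d was at 0. Itgam was lower without passing, at 95.5 and 111 in Lrig1 control, against 128 and 133 in K14 control. Cd3e, near the floor in Lrig1 control, was also lower without passing. Of 2 tested mural markers Notch3 passed (1.33), at 1718 and 1693 in Lrig1 control, against 670 and 684 in K14 control, and Acta2 did not, at 5.8 and 8.5, against 10.2 and 7.9. Notch3 makes up nearly all of the mural sum, and the other mural markers, Rgs5, Pdgfrb and Myh11, were at 0 to 5.6 in these libraries. Other epithelial compartments moved as well. Differentiated epidermis had 4 of 6 past the threshold, with Flg (5.89), Ivl (3.40) and Lor (2.87) leading and a sum of 97430 to 111600 in Lrig1 control, against 59160 to 63660 in K14 control. Hair matrix and shaft had 4 of 6, the keratins Krt86, Krt33a, Krt81 and Krt31, of which Krt86 and Krt33a were at or below the floor in K14 control, with a sum of 986 to 1548 in Lrig1 control, against 658 to 685 in K14 control. The inner root sheath had 2 of 6, Krt25 (3.66) and Krt28 (2.70), with a sum of 1507 to 1698 in Lrig1 control, against 1207 to 1303 in K14 control. In limma 0 of 6 interfollicular basal markers passed (4 at an unadjusted p under 0.05), 0 of 6 sebaceous gland markers (0 unadjusted) and 0 of 4 tested melanocyte markers (0 unadjusted), and no dermal papilla marker was tested. The interfollicular basal sum was lower in Lrig1 control, at 101900 to 110900, against 174500 to 177400 in K14 control. The sebaceous sum was also lower, at 6898 to 6999 in Lrig1 control, against 12600 to 12720 in K14 control. The dermal papilla gene Crabp1 was at 0 in both K14 control libraries and the melanocyte gene Sox10 at 0 in both Lrig1 control libraries.

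Among the ablation libraries the markers were again higher in Lrig1 than in K14, all 10 of them in both libraries of each group. Here 4 rose past the threshold, Lhx2, Tbx1, Shisa2 and Tshz2, and 10 had an unadjusted p under 0.05 (limma). Over all tested genes 0.667% passed, 0.463% in the higher direction, 16.4% had an unadjusted p under 0.05, and both Lrig1 ablation libraries lay above both K14 ablation libraries in 19.0% of genes. The median log2 difference was 2.33 over the 10 markers and -0.022 over all tested genes. These libraries do not enter the comparison of the control groups, although both comparisons use 1 shared estimate of each gene's spread.

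Shisa2 had the smallest adjusted p of the 10, with 250 and 229 in Lrig1 ablation, against 42.5 and 52.5 in K14 ablation (log2 difference 2.32 ± 0.20, limma adjusted p = 0.0127). Lhx2 was 208 and 328 in Lrig1 ablation, against 27.6 and 41.8 in K14 ablation (2.90 ± 0.31, adjusted p = 0.0236). Tshz2 was 324 and 702 in Lrig1 ablation, against 38.9 and 74.0 in K14 ablation (3.13 ± 0.39, adjusted p = 0.0265). In these 3 genes the lowest Lrig1 ablation library was several times the highest K14 ablation library. Tbx1 was 209 and 370 in Lrig1 ablation, against 42.5 and 69.7 in K14 ablation (2.33 ± 0.33, adjusted p = 0.0303). Lgr5, at 181 and 493 in Lrig1 ablation, against 63.7 and 30.0 in K14 ablation, came next without passing (2.74 ± 0.52, adjusted p = 0.0670). Nfatc1, Runx1, Foxc1, Sox9 and Cd34 had log2 differences of 1.22 to 2.43 and adjusted p-values of 0.0921 to 0.259.

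The 4 calls became 0 without any 1 of the 4 control libraries (10 unadjusted in each fit) and 9, all but Cd34, without Lrig1 ablation 1. Of all tested genes 0 also passed without any 1 control library, where 11.8 to 12.3% had an unadjusted p under 0.05, and 22.5% passed without Lrig1 ablation 1. Of the cell type lists, only Lyve1 passed between the ablation groups, with a log2 difference of 2.33. An unadjusted p under 0.05 (limma) was reached by 5 of 7 upper follicle, 5 of 8 leukocyte and 4 of 6 differentiated epidermis markers. It was also reached by 3 of 6 inner root sheath and 2 of 4 lymphatic markers. Each other list had 0 or 1, and of all tested genes 16.4% reached it. The leukocyte sum was 183 to 212 in Lrig1 ablation, against 466 to 1434 in K14 ablation. The part of other compartments in the marker differences was not tested. The blood endothelium sum was 125 to 188 in Lrig1 ablation, against 123 to 172 in K14 ablation, and Cdh5, which defines endothelium, was 4.4 and 3.2 in Lrig1 ablation, against 7.1 and 8.6 in K14 ablation. Sele and Dpt were at 0 in both Lrig1 ablation libraries, and Fgf10 in both libraries of each ablation group. The upper follicle sum was 17230 to 34270 in Lrig1 ablation, against 8301 to 15020 in K14 ablation.

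**Figure D2:**
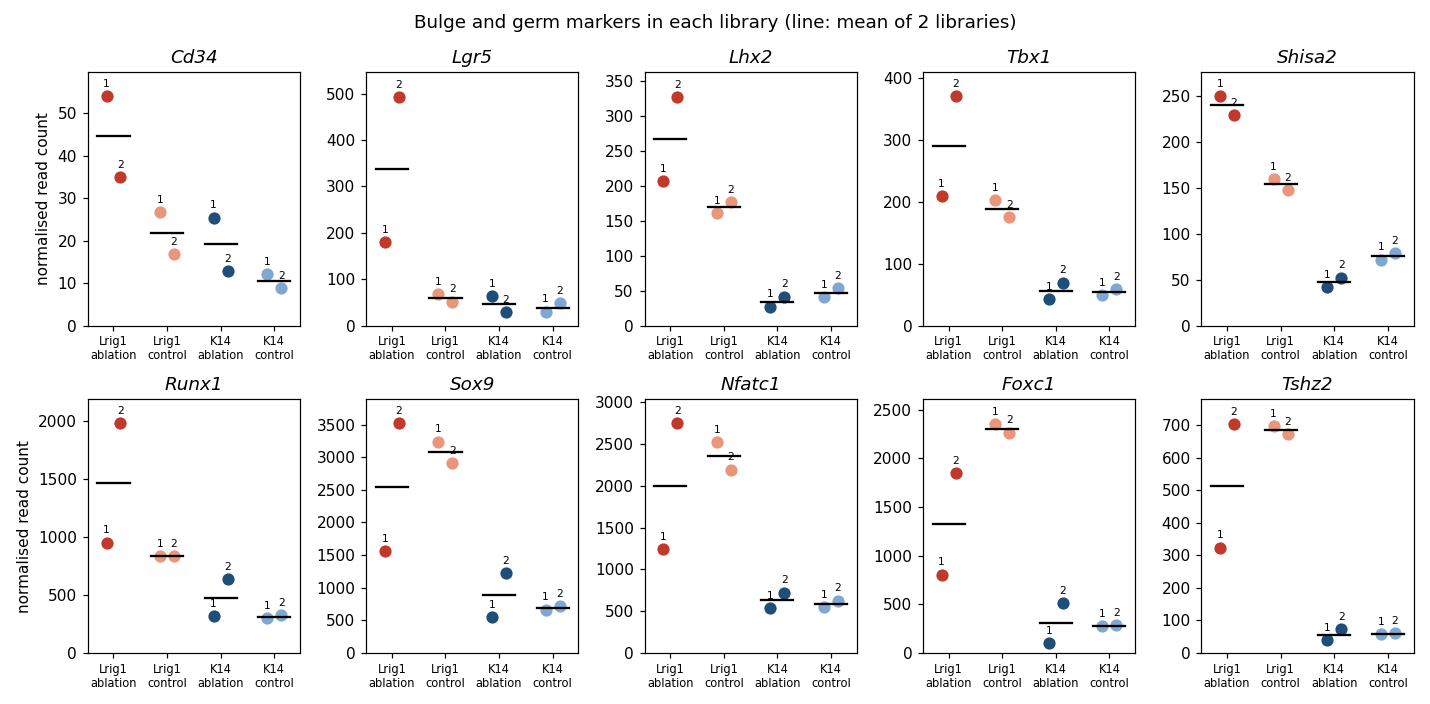
Normalised read count of each marker in each library (points, with the library number) and the mean of the group (line), on a separate linear axis per gene that starts at 0. All Lrig1 points of the 10 genes lie above the K14 points of the same condition, and the 2 points of an ablation group usually lie further apart than those of a control group.

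Within Lrig1, the comparison of ablation with control asks how these markers differed between the Lrig1 libraries with and without basal lineage ablation. None of the 10 passed the threshold in limma, and 2 had an unadjusted p under 0.05, Lgr5 and Shisa2 (edgeR and DESeq2 each called 1, Lgr5). Over all tested genes 4.06% passed and 20.1% had an unadjusted p under 0.05. Both ablation libraries lay above both control libraries for 6 markers, Cd34, Lgr5, Lhx2, Tbx1, Shisa2 and Runx1, which 21.4% of all tested genes also did, and below them for Foxc1, as in 26.4% of genes. Sox9, Nfatc1 and Tshz2 overlapped between the groups. The median log2 difference was 0.59 over the 10 markers and -0.017 over all tested genes. The Lrig1 control libraries also enter the comparison of the control groups, so the values of the 2 comparisons are not independent.

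Lgr5 had the largest difference, at 181 and 493 in Lrig1 ablation, against 67.5 and 52.2 in Lrig1 control, which is a mean 5.63 times as high. Its log2 difference was 2.31 ± 0.52 with a 95% interval of 1.11 to 3.51, and the adjusted p was 0.0513 in limma, just outside the threshold. The adjusted p of Lgr5 ranged from 4.2e-05 in DESeq2 to 0.333 in limma without Lrig1 control 2, with 0.0467 in edgeR, and the difference was positive in every fit. Without Lrig1 ablation 1 Lgr5 passed (log2 difference 3.03, limma adjusted p = 0.0140) in a fit that rests on 1 ablation library and in which 13.9% of all tested genes passed, and without Lrig1 ablation 2 it did not (1.59, adjusted p = 0.0865). Both ablation libraries were above every other library of the series for this gene.

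Shisa2 was 250 and 229 in Lrig1 ablation, against 159 and 148 in Lrig1 control, a close pair in each group (log2 difference 0.64 ± 0.20, limma adjusted p = 0.129). Cd34 was 54.1 and 35.0 in Lrig1 ablation, against 26.8 and 16.9 in Lrig1 control (1.00 ± 0.46, adjusted p = 0.279). The blood endothelium sum was 125 to 188 in Lrig1 ablation, against 1173 to 1295 in Lrig1 control. Cdh5 was 4.4 and 3.2 in Lrig1 ablation, against 93.1 and 113 in Lrig1 control. The part of endothelial cells in the Cd34 values was not tested. Lhx2 was 208 and 328 in Lrig1 ablation, against 162 and 178 in Lrig1 control (0.62 ± 0.31), and Tbx1 was 209 and 370 in Lrig1 ablation, against 203 and 175 in Lrig1 control (0.56 ± 0.33). Runx1 was 952 and 1980 in Lrig1 ablation, against 838 and 835 in Lrig1 control (0.71 ± 0.38). The adjusted p-values of Lhx2, Tbx1 and Runx1 were 0.313 to 0.395, and Lrig1 ablation 2 gave the higher value in each.

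Foxc1, Tshz2, Sox9 and Nfatc1, the 4 genes with the largest differences between the control groups, had negative estimates after ablation. Foxc1 was 806 and 1847 in Lrig1 ablation, against 2347 and 2262 in Lrig1 control (log2 difference -0.92 ± 0.67, limma adjusted p = 0.498). Tshz2 was 324 and 702 in Lrig1 ablation, against 697 and 671 in Lrig1 control (-0.52 ± 0.39). Sox9 was 1566 and 3521 in Lrig1 ablation, against 3239 and 2907 in Lrig1 control (-0.39 ± 0.43), and Nfatc1 was 1241 and 2754 in Lrig1 ablation, against 2527 and 2193 in Lrig1 control (-0.35 ± 0.34). In Tshz2, Sox9 and Nfatc1 Lrig1 ablation 1 lay below the controls and Lrig1 ablation 2 above them, and the sign of the estimate turned without Lrig1 ablation 1. Without Lrig1 ablation 2 the Nfatc1 estimate was -0.92 (limma adjusted p = 0.0297), but that fit rests on 1 ablation library, assumed to vary like the other groups, and 11.8% of all tested genes passed in it.

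Of all normalised reads, mitochondrial genes took 3.14 and 4.14% in Lrig1 ablation, against 6.29 and 6.89% in Lrig1 control. Their share was 2.62 and 2.34% in K14 ablation, against 2.91 and 2.90% in K14 control. The part of these shares in the marker differences was not tested. Other compartments differed between Lrig1 ablation and Lrig1 control too, and their part in the marker values was not tested. Of 12 tested blood endothelium markers 8 passed, all lower in Lrig1 ablation, as were 3 of 4 lymphatic markers, with a lymphatic sum of 91.5 to 97.6 in Lrig1 ablation, against 453 to 502 in Lrig1 control. Of 6 differentiated epidermis markers 3 fell, Lor (-2.96), Krt10 (-2.13) and Sbsn (-1.97), with a sum of 30370 to 30690 in Lrig1 ablation, against 97430 to 111600 in Lrig1 control. Of 6 hair matrix and shaft markers 5 fell, the keratins Krt31, Krt33a, Krt81 and Krt86 and the homeobox gene Hoxc13 (-0.95), with a sum of 287 to 454 in Lrig1 ablation, against 986 to 1548 in Lrig1 control. Of 7 upper follicle markers Krt17 fell by 0.78 and Lgr6, a stem cell marker of the upper follicle, rose by 1.36, with a sum of 17230 to 34270 in Lrig1 ablation, against 58270 to 60750 in Lrig1 control. Notch3 (-1.22) and the myeloid gene Lyz2 (-2.31) were the passing members of the mural and leukocyte lists, and in limma 0 of 5 fibroblast markers (0 unadjusted), 0 of 6 interfollicular basal (1), 0 of 6 inner root sheath (3), 0 of 6 sebaceous gland (0) and 0 of 4 melanocyte markers (0) passed.

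**Figure D3:**
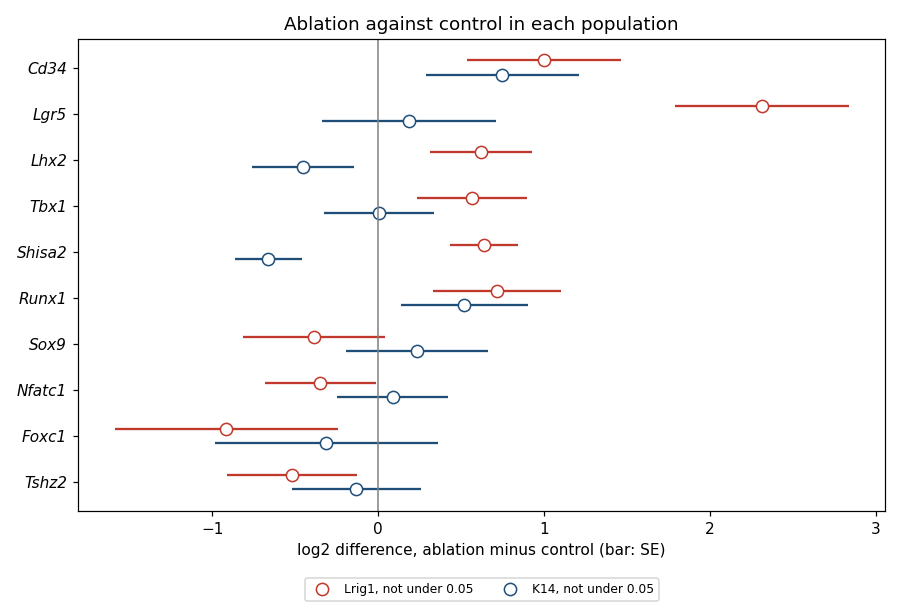
Log2 difference of each marker, ablation minus control, in Lrig1 (red) and in K14 (blue), with the SE as the bar; open points did not have an adjusted p under 0.05 (limma). Lgr5 in Lrig1 stands furthest from 0 at 2.31, and Shisa2 lies at 0.64 in Lrig1 and at -0.66 in K14.

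Within K14, ablation left the markers without a call. In limma 0 of the 10 passed and 1 had an unadjusted p under 0.05, Shisa2, and edgeR and DESeq2 also called 0. Over all tested genes 0.187% passed and 12.8% had an unadjusted p under 0.05. The median log2 difference was 0.046 over the 10 markers and -0.0018 over all tested genes. Cd34 was higher in both ablation libraries, at 25.5 and 12.9 in K14 ablation, against 12.2 and 8.9 in K14 control (log2 difference 0.75 ± 0.46, limma adjusted p = 0.532), as were 27.4% of all tested genes. Shisa2 was lower in both, at 42.5 and 52.5 in K14 ablation, against 72.1 and 78.8 in K14 control (-0.66 ± 0.20, adjusted p = 0.266), as were 25.7% of genes.

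The other 8 markers overlapped between K14 ablation and K14 control. Foxc1 had the largest ratio between its ablation libraries, at 98.3 and 515 in K14 ablation, against 274 and 287 in K14 control, and its estimate of -0.31 ± 0.67 became 0.12 in edgeR and DESeq2 and 0.87 in limma without K14 ablation 1. Sox9 was 547 and 1219 in K14 ablation, against 666 and 726 in K14 control (0.23 ± 0.43), and Runx1 was 315 and 636, against 301 and 324 (0.52 ± 0.38). Lgr5 was 63.7 and 30.0 in K14 ablation, against 30.5 and 48.2 in K14 control (0.19 ± 0.52), with a 95% interval of -1.02 to 1.39. The other 4 lay between -0.45 for Lhx2 and 0.09 for Nfatc1. Their 95% intervals all included 0, the widest, that of Foxc1, running from -1.86 to 1.23. Of the cell type lists, only the upper follicle had a passing marker within K14, 1 of 7. An unadjusted p under 0.05 (limma) was reached by 4 of 12 blood endothelium, 3 of 8 leukocyte and 3 of 6 differentiated epidermis markers. Each other list had 0 to 2, and 12.8% of all tested genes reached it. The part of these compartments in the marker values was not tested.

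The difference of the 2 ablation effects, Lrig1 minus K14, was tested directly. In limma 0 of the 10 markers passed, as in edgeR and DESeq2, and 3 had an unadjusted p under 0.05. Over all tested genes 0.198% passed and 15% had an unadjusted p under 0.05. Shisa2 had the smallest p of the 10, with a log2 difference of effects of 1.30 ± 0.29 (unadjusted p = 0.00183, limma adjusted p = 0.11). The effects differed by 2.13 ± 0.74 for Lgr5 (adjusted p = 0.251) and by 1.07 ± 0.44 for Lhx2 (adjusted p = 0.307). Both Lgr5 and Shisa2 passed when Lrig1 ablation 1 was left out, a fit in which 11.2% of all tested genes passed. The other 7 ranged from -0.62 for Sox9 to 0.56 for Tbx1. Of the cell type lists, 3 of 12 tested blood endothelium markers passed for the difference, Cdh5, Sele and Emcn, all with negative estimates. So did 1 of 7 upper follicle markers, and no other list had a passing marker. The part of these compartments in the marker values was not tested.

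The 2 libraries of a group also differed in these markers. In Lrig1 ablation 8 of 10 markers were higher in library 2, with a median ratio of library 2 to library 1 of 2.12 (0.647 to 2.72), and the exceptions were Cd34 and Shisa2. In K14 ablation 8 of 10 were higher in library 2, with a median ratio of 1.58 (0.471 to 5.23), and the exceptions were Cd34 and Lgr5. Most markers of a control pair also shared a direction, at smaller median ratios: 1 of 10 was higher in library 2 in Lrig1 control, with a median of 0.913 (0.632 to 1.1), and 9 of 10 in K14 control, with a median of 1.09 (0.727 to 1.58). Of all tested genes 50 to 51.7% were higher in library 2 in the 4 groups, with medians of 1.0 to 1.01. Upper follicle markers moved with library 2 as well: 6 of 7 were higher there in each ablation group, with median ratios of 2.55 in Lrig1 ablation and 4.16 in K14 ablation. All 6 interfollicular basal markers, Krt5 and Krt14 among them, were lower in Lrig1 ablation 2, with a median ratio of 0.459. In K14 ablation their median ratio was 0.952. The part of follicle and interfollicular cell shares in these ratios was not tested.

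**Figure D4:**
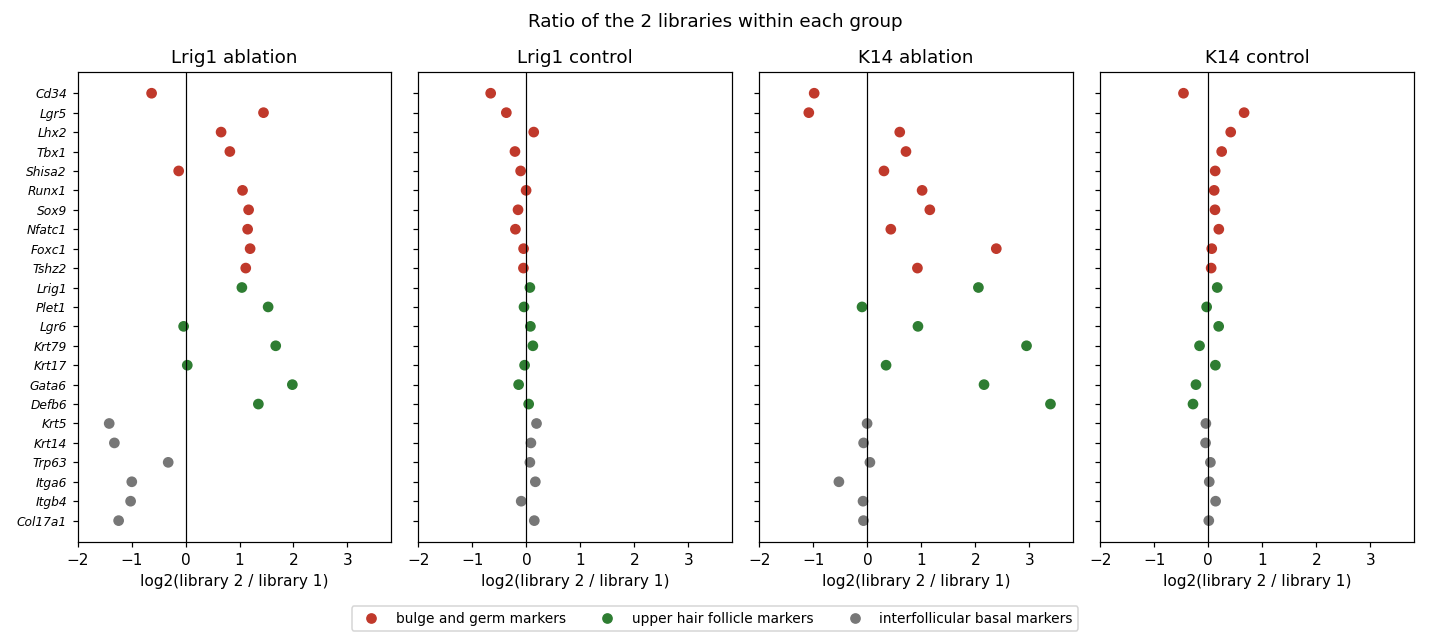
Log2 ratio of library 2 to library 1 within each group for the bulge and germ markers (red), upper hair follicle markers (green) and interfollicular basal markers (grey). In Lrig1 ablation 8 of the 10 bulge and germ markers lie right of 0 and the 6 interfollicular basal markers left of it.

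Per kilobase of exon, the order of the levels was similar at its ends in every group. Sox9 was highest, with a mean normalised read count per kilobase of 615 ± 334 in Lrig1 ablation and 743 ± 56.8 in Lrig1 control, against 214 ± 115 in K14 ablation and 168 ± 10.2 in K14 control (SD, n = 2 each). Cd34 was lowest, at 6.12 ± 1.85 in Lrig1 ablation and 3.0 ± 0.96 in Lrig1 control, against 2.63 ± 1.22 in K14 ablation and 1.44 ± 0.32 in K14 control, and Lgr5 was next to lowest. In K14 control the order was Sox9, Nfatc1, Foxc1, Runx1, Shisa2, Tbx1, Lhx2, Tshz2, Lgr5 and Cd34, with no neighbours overlapping. In Lrig1 control Foxc1 stood in the second place and Tshz2 in the fourth, and of the neighbours Shisa2 and Lhx2 overlapped. In Lrig1 ablation the 7 genes from Nfatc1 to Lhx2 each overlapped the next in the order, and so their order is not resolved there. In K14 ablation Nfatc1 overlapped Foxc1, Foxc1 overlapped Runx1, Tbx1 overlapped Shisa2, and the run from Lhx2 to Cd34 overlapped at each step.

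Other genes of the bulge and germ were taken from a list of 26, of which 23 were tested; Fgf18, Foxi3 and Shh did not pass the filter on low values. Between the control groups 8 of 23 passed and 14 had an unadjusted p under 0.05 (limma), against 8.79% and 24.4% of all tested genes. Of the 8, 7 were higher in Lrig1 control and 1 lower. The 7 were Alcam, an adhesion molecule (log2 difference 2.35), Tcf7l1, a Wnt-repressing partner of beta-catenin (1.57), Vdr, the vitamin D receptor (1.36), the homeobox gene Barx2 (1.32), the matrix gene Postn (0.84), the bulge keratin Krt15 (0.82) and Hopx (0.67). Npnt, a matrix ligand of integrins that bulge cells deposit, fell by 1.36, at a mean of 128 ± 32.6 in Lrig1 control, against 324 ± 31.8 in K14 control (SD, n = 2 each). Sfrp1 (-1.21), Col17a1 (-1.10), Cdh3 (-1.06) and Msx2 (-0.55) were also lower, without overlap of the libraries, and did not pass. The median over the 23 was 0.50, with 16 estimates positive and 7 negative. Between the ablation groups 2 of 23 passed and 12 had an unadjusted p under 0.05 (limma), against 0.667% and 16.4% of all tested genes. The 2 were higher in Lrig1 ablation, Postn (1.63) and Barx2 (0.94), and the median over the 23 was 0.65.

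Within Lrig1, 2 of the 23 passed after ablation and 6 had an unadjusted p under 0.05 (limma), against 4.06% and 20.1% of all tested genes. Postn rose by 0.79, at 7609 ± 64.8 in Lrig1 ablation, against 4423 ± 488 in Lrig1 control (limma adjusted p = 0.0290), and Hopx fell by 0.69, at 366 ± 4.94, against 591 ± 58.2 (adjusted p = 0.0393; SD, n = 2 each). Gli1, a Hedgehog target, had the largest estimate within Lrig1 (1.83, limma adjusted p = 0.0834) and did not pass. It was 63.0 and 162 in Lrig1 ablation, against 30.3 and 25.4 in Lrig1 control. Within K14, 0 of the 23 passed (4 at an unadjusted p under 0.05, limma), against 0.187% and 12.8% of all tested genes. The largest estimates there were for Wif1, a secreted Wnt inhibitor, and Gli1 (1.28), and the most negative for Cd200 (-0.90) and Alcam (-0.79). The difference of effects gave 0 of 23 (2 unadjusted), against 0.198% and 15% of all tested genes. Sfrp1 (1.1), Postn (0.79), Wif1 and Hopx (-0.41) stood at the ends of its range. Wif1 was 4.2 and 8.6 in K14 ablation, against 2.0 and 0 in K14 control, both below the floor of 3 reads, so its fitted values are not given. Medians were 0.17 within Lrig1, -0.19 within K14 and 0.26 for the difference.

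**Figure D5:**
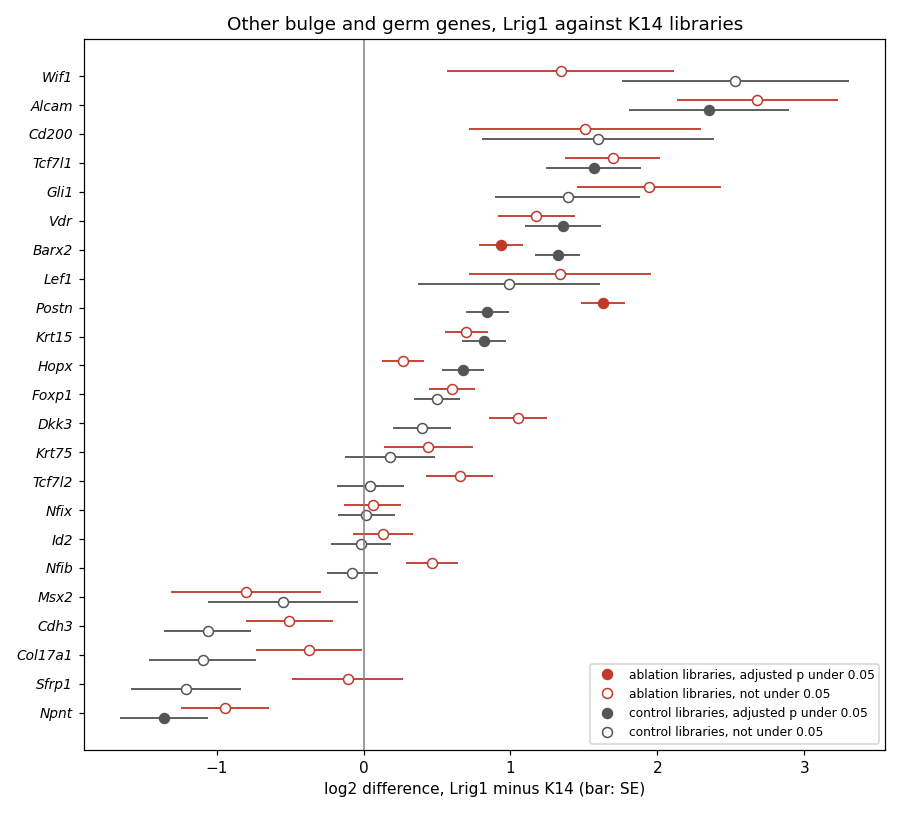
Log2 difference, Lrig1 minus K14, of the 23 other bulge and germ genes in the ablation libraries (red) and the control libraries (grey), with the SE as the bar; filled points had an adjusted p under 0.05 (limma). Postn and Barx2 are filled in both, and Npnt is the filled point left of 0.

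Likeness of pattern was measured as Pearson's r of log2(normalised read count + 1) over the 8 libraries. It is a description, because the libraries fall into 4 groups. Among the markers, Sox9 and Nfatc1 (r = 0.983), Nfatc1 and Tshz2 (0.986), Sox9 and Foxc1 (0.976), Lhx2 and Tbx1 (0.986) and Lhx2 and Shisa2 (0.971) ran close together, and Cd34 and Sox9 did not (0.460). Of all tested genes the most like Sox9 were Csnk1e, Cyp27a1 and Angptl2 (0.991 to 0.994), and those most like Lhx2 were Cacna1c, Nrcam and Apcdd1 (0.988 to 0.992). For Lgr5 they were Hoxc10, Chrm3 and Meis2 (0.964 to 0.972), and for Cd34 they were 6530437J22Rik, Gm5841 and Rnf141 (0.947 to 0.971). An r over 0.95 was reached by 161 genes for Sox9, 38 for Lhx2, 8 for Lgr5 and 2 for Cd34.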

How the data were processed

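The authors deposited 1 table of normalised read counts, a signal per gene, for 8 libraries of sorted mouse epidermal cells. Per the submitters' processing notes, Trimmomatic, STAR, Picard and HTSeq (version 0.11.1) were used on GRCm38, also called mm10; the sources used here do not give settings, strand handling or the program behind the size factors. In every library 100% of the deposited signal values were whole multiples of 1 step, within 0.001 of a whole read, so reads could be recovered for count tests. Of the columns, 4 are named differently from the ablation labels and were matched to these groups because no other group was left, with 1.1 read as replicate 1. Replicates of all 4 groups differed by more than sampling noise (Lrig1 ablation had a chi-square per gene of 39.5, Lrig1 control 2.59, K14 ablation 27.7 and K14 control 1.57), and each counts as 1 sample.

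Differences were tested with limma 3.58.1 (R 4.3.3, variance trend) on log2(normalised read count + 1), a scale that understates the change of low genes, as 4 group means over 8 libraries (4 residual and 4.13 prior degrees of freedom). The filter asked for 1e-06 of a library's total in 2 or more libraries and kept 18140 genes, and Benjamini-Hochberg adjustment ran over all of them. Intervals are 95% confidence intervals from this fit. Alternatives were pseudocounts of 0.25 and 5, no filter, a filter of 1e-05, TMM scaling, edgeR 4.0.16 and DESeq2 1.42.0 on recovered reads, array weights, the replicate number as a block, a fit of 4 libraries alone, and leaving out each library. The markers, lists and the rule for the genes named (all 10 markers; other bulge and germ genes past the threshold, or else the 2 highest and 2 lowest; the 3 genes most like Cd34, Lgr5, Lhx2 and Sox9; up to 4 passing genes of each cell type list, and those at 0 in a group) were chosen with earlier results of these data known. Gene positions and exon lengths come from the GENCODE annotation of GRCm38, and 61 symbols occur more than once in the table; for Itgam the row with more reads was used. Ccl21a, Cpa3 and Krt85 of the lists were not analysed here.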

Additional observations from a re-analysis of the deposited data

Results flagged for a closer look

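The estimates of the ablation effect on Shisa2 had opposite signs in the 2 populations. Both libraries were lower in K14 ablation (42.5 and 52.5, against 72.1 and 78.8 in K14 control). Both were higher in Lrig1 ablation (250 and 229, against 159 and 148 in Lrig1 control). Neither effect passed by itself, with 0.266 within K14 and 0.129 within Lrig1 as adjusted p-values (limma). Shisa2 was picked from the 10 markers for this pattern. Of all tested genes, 25.7% were lower without overlap within K14, and 21.4% were higher without overlap within Lrig1. How often both occurred in the same gene was not counted. The difference of the effects was 1.3 on the log2 scale, with a limma adjusted p of 0.11 that did not pass the threshold. It passed without Lrig1 ablation 1 (1.24, limma adjusted p = 0.0402), a fit in which 11.2% of all tested genes passed for the difference of effects, against 0.198% with all libraries, and ranged from 1.15 to 1.45 over the fits that left out 1 library.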

How the results depend on the processing

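With 2 libraries a group, precision is limited by the number of libraries, and for genes with few reads, such as Cd34 and Lgr5, also by their reads. Between the control groups the number of markers called, 7, lay between 0 and 8 when 1 library was left out. Between the ablation groups the number, 4, lay between 0 and 9, was 8 in DESeq2 and was 0 in a fit of these 4 libraries alone (9 at an unadjusted p under 0.05). Within Lrig1 the 0 became 1, Lgr5, with a pseudocount of 5, in edgeR and in DESeq2, and lay between 0 and 1 when 1 library was left out; for the difference of effects it lay between 0 and 2, and within K14 it was 0 in all settings run (0 to 3 markers at an unadjusted p under 0.05 without 1 library). Of all tested genes, DESeq2 called 3.67% between the ablation groups, and the fit of the 4 ablation libraries alone called 0 (7.13% at an unadjusted p under 0.05). Within Lrig1, 4.71% of all tested genes passed with a pseudocount of 5, 3.24% in edgeR and 5.5% in DESeq2. With the replicate block the marker counts were 8 and 4 between populations and 0 in the other comparisons. That fit called 7.3% of all tested genes between the control groups and 0.656% between the ablation groups. Same-numbered libraries deviated together with r of -0.0491 to 0.0838 over 18140 genes, so the numbers were not taken as pairs.

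Signs turned for Foxc1 within K14 (0.12 in both edgeR and DESeq2), and otherwise when 1 library was left out. Within K14 the ranges were -0.34 to 0.72 for Lgr5, -0.35 to 0.81 for Sox9, -0.13 to 0.30 for Nfatc1, -0.35 to 0.36 for Tbx1, -1.50 to 0.87 for Foxc1 and -0.59 to 0.32 for Tshz2. Within Lrig1 they were -0.97 to 0.20 for Sox9, -0.92 to 0.23 for Nfatc1 and -1.08 to 0.038 for Tshz2. For the difference they were -0.22 to 0.72 for Cd34, -1.01 to 0.14 for Nfatc1, -1.79 to 0.58 for Foxc1, -0.33 to 0.72 for Runx1 and -0.94 to 0.17 for Tshz2. The cause was not tested. No estimate between populations changed sign. Cd34 did not pass the stricter filter, so it has no value there. Counts over all genes varied by more than 1.5 times: 737 within Lrig1 (5 to 2498 over all settings), 34 within K14 (0 to 740), 36 for the difference (0 to 2022), 1594 between control groups (1 to 7269) and 121 between ablation groups (0 to 4041).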
